A study of Mus musculus with 7 samples.

Results

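The autophagy machinery genes described here are 41 of the 47643 rows of a table of gene expression in alveolar macrophages of the mouse, which clear debris and surfactant from the lung airspaces. They were chosen by name among the protein-coding rows: every Atg gene followed by a number, every Gabarap, Map1lc3 and Wipi gene, and 15 further genes of the pathway from Ulk1 to Stx17. Values were TPM (length-normalized transcript abundance), which are length-scaled shares of a library, so levels can be set beside each other between genes and carry no record of sequencing depth. The depth is therefore unknown, so counting intervals and floors are left out. A member was tested if its mean over the 7 libraries was at least 1 TPM, and 39 members passed, beside 11397 genes of the whole table. The other two were Atg9b, listed at 0 in every library, and Atg4a-ps, which the table calls protein-coding and whose name marks a pseudogene, at up to 0.12 TPM.

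Autophagy encloses a portion of cytoplasm in a double membrane, the autophagosome, and delivers it to the lysosome. The ULK kinase complex starts the process, a class III phosphoinositide 3-kinase containing Beclin 1 marks the membrane, and vesicles carrying ATG9 and the lipid transfer protein ATG2 feed its growth. A pair of ubiquitin-like conjugation systems attaches proteins of the ATG8 family (LC3 and GABARAP) to the membrane, cargo receptors bind both ATG8 and the cargo, and SNARE proteins such as syntaxin 17 fuse the closed vesicle with the lysosome. Macrophages also use parts of the conjugation machinery to attach LC3 to phagosomes.

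The libraries held poly(A) RNA of alveolar macrophages with the sort markers CD11c, F4/80 and SiglecF. Of these, 3 carried conditional (floxed) alleles of Siah1a and Siah2, which encode RING-type ubiquitin ligases, with a Cre recombinase driven from Lyz2 (cSiah1a/2f/f::Lyz2cre, here Lyz2cre), and 1 had the floxed pair with Cre driven by the CD11c promoter (cSiah1a/2f/f::CD11ccre, here CD11ccre). The remaining 3 were wild type (WT). Lyz2 is active in many myeloid cells and CD11c also in dendritic cells, so either Cre can act outside alveolar macrophages. The labels give no age, treatment or pooling, and leave unsaid whether replicates are separate animals, so that a p-value here covers the spread among the libraries alone, which may be technical. The CD11ccre library has no replicate and was assumed to vary like the other groups.

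The targets were low in the Cre lines. Siah1a was listed at 0, 0 and 0.05 TPM in Lyz2cre and at 0 in CD11ccre, against 16.59, 6.72 and 13.35 TPM in WT, and Siah2 stood at 1.45 to 1.95 TPM in the Lyz2cre libraries and 1.21 TPM in CD11ccre, against 12.69 to 17.33 TPM in WT. Lyz2 itself, usually a highly expressed macrophage gene, stood at 46.62 to 61.89 TPM in the Lyz2cre libraries and 50676 TPM in CD11ccre, against 72.56 to 86.25 TPM in WT. WT thus stood near Lyz2cre and far below CD11ccre, and the labels do not say whether the WT animals carried a Cre allele. The comparison of CD11ccre with WT therefore differs in Lyz2 level as well as in Siah1a and Siah2, and these cannot be told apart. All 12 listed alveolar macrophage markers averaged at least 1 TPM, and their summed level was 11238 to 11861 TPM in the Lyz2cre libraries and 10665 TPM in CD11ccre, against 11952 to 12573 TPM in WT. The sum covers opposite differences: all Lyz2cre values lay above all WT values for 6 of the 12 (Car4, Cd68, Fabp4, Itgax, Marco and Plet1) and below them for 4 (Ear2, Krt79, Mrc1 and Siglecf). Of the sort markers, Itgax, which encodes CD11c, stood at 421.09 to 433.59 TPM in the Lyz2cre libraries and 541.27 TPM in CD11ccre, against 326.6 to 386.85 TPM in WT, and Siglecf stood at 65.48 to 106.62 TPM in the Lyz2cre libraries and 53.87 TPM in CD11ccre, against 210.72 to 256.5 TPM in WT. Of the lists for other cell types, the 6 neutrophil genes summed to 125 to 168 TPM in the Lyz2cre libraries and 151 TPM in CD11ccre, against 54.8 to 107 TPM in WT. Within that list S100a8, the main part of the sum in the Cre lines, stood at 80.88 to 126.83 TPM in the Lyz2cre libraries and 92.1 TPM in CD11ccre, against 15.6 to 32.86 TPM in WT. Mmp8 was also higher (18.67 to 26.76 TPM in Lyz2cre, 45.87 TPM in CD11ccre, 10.01 to 14.89 TPM in WT). So was Cxcr2 (3.82 to 7.41 TPM in Lyz2cre, 6.65 TPM in CD11ccre, 1.3 to 3.77 TPM in WT). In contrast, S100a9 (1.16 to 6.9 TPM in Lyz2cre, 1.62 TPM in CD11ccre, 10.67 to 37.91 TPM in WT) and Csf3r (5.36 to 11.08 TPM in Lyz2cre, 4.43 TPM in CD11ccre, 17.23 to 26.02 TPM in WT) were lower in the Cre lines. Between Lyz2cre and WT, 3 of the 6 lay wholly higher, 2 wholly lower and 1 overlapped. The 6 endothelial genes summed to 88.1 to 127 TPM in the Lyz2cre libraries and 72.6 TPM in CD11ccre, against 30.3 to 59.9 TPM in WT, of which Vwf gave nearly all, while Cdh5 and Kdr were at or below 0.18 TPM in every library. The 8 alveolar type 2 genes summed to 76.0 to 96.4 TPM in the Lyz2cre libraries and 69.7 TPM in CD11ccre, against 120 to 152 TPM in WT. In that list Lyz1 stood at 8.22 to 14.08 TPM in the Lyz2cre libraries and 9.39 TPM in CD11ccre, against 43.2 to 76.92 TPM in WT. Napsa was lower as well (18.25 to 39.04 TPM in Lyz2cre, 24.14 TPM in CD11ccre, 43.56 to 59.15 TPM in WT). The surfactant gene Sftpb stood at 3.75 to 3.94 TPM in the Lyz2cre libraries and 5.56 TPM in CD11ccre, against 0.89 to 2.32 TPM in WT. Sftpa1 was also higher (4.86 to 8.44 TPM in Lyz2cre, 4.83 TPM in CD11ccre, 1.4 to 4.61 TPM in WT). Sftpc at 19.36 to 37.0 TPM in Lyz2cre overlapped WT at 12.8 to 23.83 TPM, with CD11ccre at 24.03 TPM. Between Lyz2cre and WT, 2 of the 8 lay wholly higher, 2 wholly lower and 4 overlapped. The 6 B and plasma cell genes summed to 0.12 to 1.26 TPM, 0.44 TPM and 4.84 to 19.3 TPM in the same order. Club and ciliated genes (6) summed to 90.4 to 271 TPM, 204 TPM and 112 to 209 TPM, of which Scgb1a1 gave most. Monocyte genes (6) summed to 35.0 to 52.0 TPM, 38.2 TPM and 38.8 to 50.9 TPM. Among these Ccr2 was lower (0.58 to 0.91 TPM, 0.6 TPM and 2.98 to 6.85 TPM), and 5 overlapped between Lyz2cre and WT. The fibroblast, dendritic cell, and T and NK cell lists each summed to at most 11.64 TPM in any library. Ftl1, Fth1 and Chil3 together took 14.4% to 16.3% of the TPM in Lyz2cre, 14.0% in CD11ccre and 4.90% to 5.29% in WT. Mitochondrially encoded genes took 2.67% to 4.61% in Lyz2cre, 4.23% in CD11ccre and 7.54% to 9.25% in WT, and Lyz2 alone took 5.07% in CD11ccre. Each of these shares bears on what is left of a library's TPM for all other genes. The part of these marker differences in the results was not tested. In bulk samples, fewer cells of a type and less RNA per cell cannot be told apart.

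Most of the machinery was expressed at low to middling levels, with 1 gene far above the rest. In WT libraries 3 members averaged 100 TPM or more, 14 stood at 20 to 100 TPM and 22 at 1 to 20 TPM. Gabarap led with 985 TPM ± 70.9 (SD, n = 3), followed by Map1lc3b with 261 TPM ± 16.4 (SD, n = 3), and neither range met that of a neighbour. Tax1bp1, Becn1 and Gabarapl1 came next at 105 TPM ± 9.91, 93.0 TPM ± 15.0 and 92.1 TPM ± 21.7 (SD, n = 3 each), and these did not differ beyond their spread. The lowest tested members were Epg5, a tether that helps autophagosomes meet lysosomes, at 2.06 TPM ± 0.406 and the lipid transfer gene Atg2b at 3.44 TPM ± 0.252 (SD, n = 3 each). The median tested member averaged 17.4 TPM in WT, close to the 15.4 TPM of all genes tested. The members' coefficient of variation over the WT libraries was 15.4% at the median, against 19.6% for all genes tested, and reached 48.4% for the protease gene Atg4b.

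**Figure D1:**
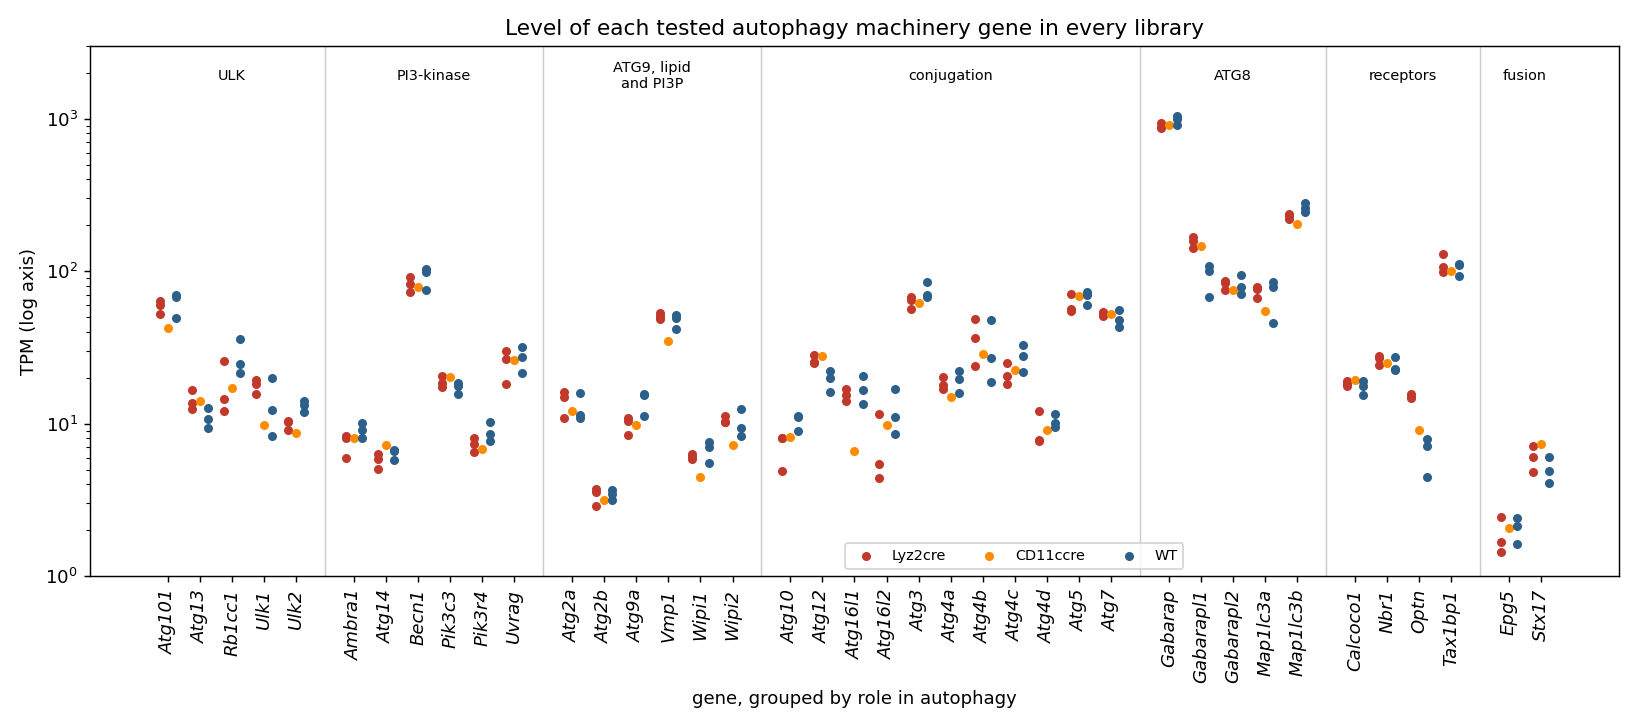
TPM of each of the 39 tested genes in every library, on a log axis, with genes grouped by role along the horizontal axis and 1 point per library (3 Lyz2cre, 1 CD11ccre, 3 WT). Gabarap stands near 900 TPM or above in all groups, and Epg5 and Atg2b lie at the low end.

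Between Lyz2cre and WT, 1 of 39 tested members rose and 0 fell. The gene that rose was Optn, which encodes the cargo receptor optineurin, at 2.32 times its WT mean. The test was limma's moderated two-sided test on log2(TPM + 1), with Benjamini-Hochberg adjustment across the 11397 genes tested, and called at an adjusted p under 0.05. On that scale a fold change understates the change of a low gene. The share of members called was 2.56%, against 6.76% of all genes tested (2.17% higher and 4.6% lower in Lyz2cre). Before adjustment, 5 of 39 members had p under 0.05, 3 higher and 2 lower, or 12.8% of them, against 24.6% of all genes. The call on Optn, and with it the count of 1, ended on leaving out Lyz2cre replicate 1, 2 or 3 or WT replicate 1 or 2, each alone.

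The median log2 fold change was -0.06 over the members and -0.16 over all genes tested, and 27 of 39 members lay above the median of all genes. The 95% interval of the difference lay within 1 log2 unit of 0 for 32 of 39 members (82.1%), against 63.2% of all genes. Median-of-ratios scaling of the TPM moved the medians to 0.12 for the members and -0.0008 for all genes, so the sign of the members' median depends on the scaling. The same scaling turned the split over all genes to 339 higher and 211 lower, against 247 higher and 524 lower with the TPM as deposited. All Lyz2cre values lay above all WT values for 3 of 39 members (Optn, Gabarapl1 and Atg12), or 7.69%, against 7.45% of all genes. They lay below all WT values for 5 members (Ulk2, Atg9a, Atg10, Atg3 and Map1lc3b), or 12.8%, against 23.3% of all genes.

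**Figure D2:**
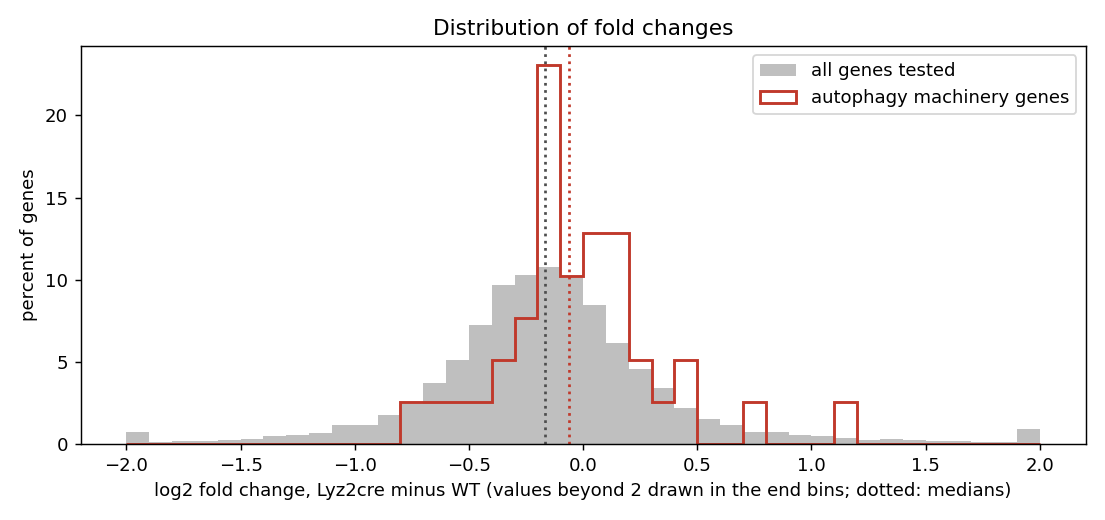
Histogram of the log2 fold change of Lyz2cre minus WT on log2(TPM + 1), as a percent of genes per bin, for the 39 autophagy machinery genes (outline) and all 11397 genes tested (grey), with dotted lines at the medians. The medians are -0.06 for the members and -0.16 for all genes, and the members range from -0.74 (Atg16l2) to 1.13 (Optn).

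In CD11ccre against WT, 0 of 39 members were called by limma, against 2.89% of all genes (0.895% higher and 1.99% lower). Before adjustment, 5 members had p under 0.05, with Gabarapl1 higher and Ulk2, Vmp1, Map1lc3b and Atg16l1 lower, or 12.8% against 22.3% of all genes. The CD11ccre value lay above the WT range for 8 members (20.5%, against 13.0% of all genes) and below it for 16 (41.0%, against 50.5%). The median log2 fold change was -0.15 over the members and -0.29 over all genes, and 0.13 and -0.0055 after median-of-ratios scaling. The 95% interval lay within 1 log2 unit of 0 for 23 of 39 members (59.0%), against 36.2% of all genes. This comparison shares its WT libraries with that of Lyz2cre. In CD11ccre against Lyz2cre, limma called 0 of 39 members, against 0.114% of all genes. An unadjusted p under 0.05 was found for 2 members (5.13%) and for 695 of all 11397 genes.

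**Figure D3:**
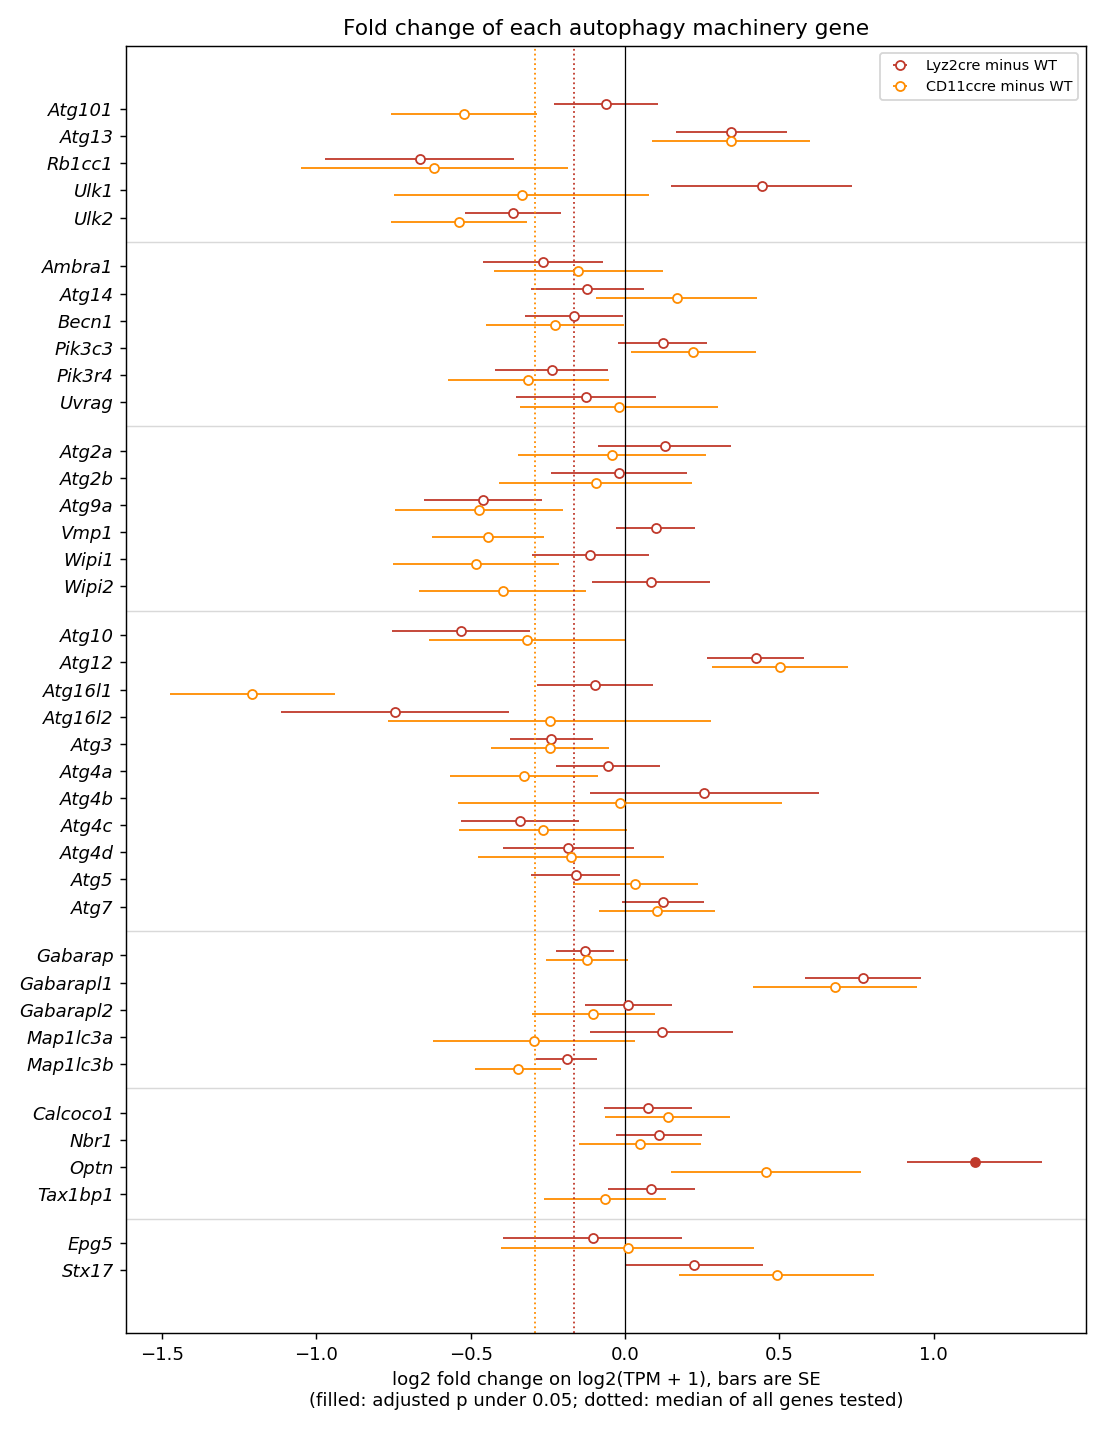
Log2 fold change on log2(TPM + 1), with its SE, of Lyz2cre minus WT (upper point of each gene) and CD11ccre minus WT (lower point) for the 39 tested members, grouped by role. Optn at 1.13 in Lyz2cre is the filled point with an adjusted p under 0.05, and Atg16l1 at -1.21 in CD11ccre is the value farthest below 0.

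The ULK initiation complex had 5 tested members, and 0 were called in either Cre line. Of all genes, 6.76% were called in Lyz2cre and 2.89% in CD11ccre. A count of 0 in so small a group is therefore not read as a result, here or for the groups below. Its kinases are encoded by Ulk1 and Ulk2, its scaffold FIP200 by Rb1cc1, and its adaptor pair by Atg13 and Atg101. Log2 fold changes of Lyz2cre against WT ran from -0.67 (Rb1cc1) to 0.44 (Ulk1), with adjusted p of 0.205 or more. Ulk2 stood at 9.04, 10.47 and 10.23 TPM in the Lyz2cre libraries and 8.66 TPM in CD11ccre, against 13.24, 11.86 and 14.01 TPM in WT. Its Lyz2cre and WT values did not overlap, and its log2 difference of -0.36 ± 0.16 (SE) did not pass (limma adjusted p = 0.205).

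The class III phosphoinositide 3-kinase complexes had 6 tested members and the group with ATG9, lipid transfer and phosphoinositide readers 6 of 7, again with 0 called. Beside these counts stand 6.76% of all genes in Lyz2cre and 2.89% in CD11ccre. Becn1, encoding Beclin 1, stood at 91.83, 82.58 and 72.71 TPM in the Lyz2cre libraries and 78.55 TPM in CD11ccre, against 99.10, 103.92 and 75.84 TPM in WT, and the groups overlapped. The kinase gene Pik3c3, its partners Pik3r4, Atg14 and Uvrag, and the Beclin 1 regulator Ambra1 had log2 fold changes between -0.26 and 0.12 in Lyz2cre against WT. Atg9a, the scramblase of the vesicles that seed the membrane, stood at 10.37, 10.96 and 8.43 TPM in the Lyz2cre libraries and 9.77 TPM in CD11ccre, against 15.57, 11.22 and 15.48 TPM in WT. No Lyz2cre value reached the lowest WT value, and the log2 difference of -0.46 ± 0.19 (SE) did not pass (limma adjusted p = 0.194, exact two-sided permutation p = 0.1, the smallest that 3 against 3 libraries allow). Atg9a (chromosome 1, 75180860 to 75192196, minus strand, mm10) overlaps Ankzf1 on the other strand, at 5.80 TPM in Lyz2cre, 3.26 TPM in CD11ccre and 5.95 TPM in WT. The strand setting of the authors' quantification is not given in the sources used here. Vmp1, whose product moves lipids between the faces of the endoplasmic reticulum membrane, stood at 34.61 TPM in CD11ccre, below the WT range of 41.88 to 51.46 TPM (log2 difference -0.44 ± 0.18 SE, limma adjusted p = 0.205), while Lyz2cre at 48.74 to 53.19 TPM overlapped WT. The lipid transfer genes Atg2a and Atg2b and the phosphoinositide readers Wipi1 and Wipi2 had log2 fold changes from -0.11 to 0.13 in Lyz2cre against WT.

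The conjugation group had 11 tested members and 0 called, against 6.76% of all genes in Lyz2cre and 2.89% in CD11ccre. Atg12, the ubiquitin-like partner of ATG5, stood at 25.10, 25.25 and 28.26 TPM in the Lyz2cre libraries and 27.70 TPM in CD11ccre, against 16.19, 19.93 and 22.11 TPM in WT. All 4 Cre libraries lay above the WT range, and the log2 difference of Lyz2cre of 0.42 ± 0.16 (SE) did not pass (limma adjusted p = 0.153). Atg10, the E2-like enzyme that transfers ATG12 to ATG5, stood at 4.92, 8.09 and 8.01 TPM in the Lyz2cre libraries and 8.12 TPM in CD11ccre, against 11.15, 11.03 and 9.01 TPM in WT. All 4 Cre libraries lay below the WT range, and the log2 difference of Lyz2cre of -0.53 ± 0.22 (SE) did not pass (limma adjusted p = 0.198). Atg5 averaged 60.6 TPM ± 8.52 in Lyz2cre and 67.6 TPM ± 6.48 in WT (SD, n = 3 each), and the E1-like enzyme gene Atg7 averaged 52.9 TPM ± 1.82 in Lyz2cre and 48.6 TPM ± 6.39 in WT (SD, n = 3 each), in each case with overlapping groups. Atg3, the E2-like enzyme for ATG8, stood at 67.47, 56.24 and 64.35 TPM in the Lyz2cre libraries and 62.27 TPM in CD11ccre, against 84.37, 70.21 and 68.17 TPM in WT, with no overlap and no call (limma adjusted p = 0.323). The proteases that cut and recycle ATG8 (Atg4a to Atg4d) averaged 9.21 to 36.3 TPM in Lyz2cre and 10.4 to 31.3 TPM in WT, and over the whole group log2 fold changes of Lyz2cre against WT ran from -0.74 (Atg16l2) to 0.42 (Atg12).

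Atg16l1, the subunit that places the ATG12 and ATG5 conjugate on membranes, is singled out here after its values were seen. It stood at 14.13, 15.38 and 17.01 TPM in the Lyz2cre libraries and 6.63 TPM in CD11ccre, against 16.52, 20.57 and 13.46 TPM in WT. Lyz2cre overlapped WT, and the CD11ccre value lay below every other library. CD11ccre against WT gave a log2 difference of -1.21 ± 0.27 (SE, limma adjusted p = 0.0613), which passed only where genes under a mean of 5 TPM were left out (limma adjusted p = 0.0460, range over the 14 alternatives 0.0460 to 0.177). The difference of CD11ccre from Lyz2cre, -1.11 ± 0.27 (SE), did not pass (limma adjusted p = 0.639), so a difference between the Cre lines was not shown. The value rests on 1 library.

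The ATG8 family holds 5 members, and 0 were called in either comparison, against 6.76% of all genes in Lyz2cre and 2.89% in CD11ccre. Gabarap stood at 887.51, 936.02 and 875.27 TPM in the Lyz2cre libraries and 903.01 TPM in CD11ccre, against 999.23, 908.60 and 1048.43 TPM in WT. Lyz2cre overlapped WT, with a log2 difference of -0.13 ± 0.09 (SE, limma adjusted p = 0.448) that turned to 0.05 under median-of-ratios scaling. Gabarapl2 stood at 84.06, 75.33 and 86.08 TPM in the Lyz2cre libraries and 75.47 TPM in CD11ccre, against 79.29, 70.72 and 94.99 TPM in WT. Map1lc3a stood at 76.31, 78.48 and 66.37 TPM in the Lyz2cre libraries and 54.93 TPM in CD11ccre, against 79.05, 84.66 and 46.05 TPM in WT. Both genes overlapped between Lyz2cre and WT, with log2 differences of 0.01 ± 0.14 (SE) and 0.12 ± 0.23 (SE) and limma adjusted p of 0.973 and 0.801.

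Gabarapl1, the other GABARAP-type gene (chromosome 6, 129533160 to 129542346, plus strand, mm10, ENSMUSG00000030161), had the second largest log2 fold change among the members in Lyz2cre against WT. It stood at 156.73, 167.16 and 141.20 TPM in the Lyz2cre libraries and 145.21 TPM in CD11ccre, against 108.03, 100.81 and 67.33 TPM in WT. All 4 Cre libraries lay above the WT range, and the ratio of means was 1.68 in Lyz2cre and 1.58 in CD11ccre. The log2 difference of 0.77 ± 0.19 (SE) in Lyz2cre did not pass (limma adjusted p = 0.0543, exact two-sided permutation p = 0.1), nor did that of 0.68 ± 0.27 (SE) in CD11ccre (limma adjusted p = 0.190). It passed in Lyz2cre where genes under a mean of 5 TPM were left out (limma adjusted p = 0.0406), with median-of-ratios scaling (0.0298) and with nuclear protein-coding genes rescaled (0.0162), and its adjusted p ran from 0.0162 to 0.157 over 15 alternatives. As a share of the summed ATG8 TPM, Gabarapl1 took 10.8% ± 0.631 in Lyz2cre, 10.5% in CD11ccre and 6.20% ± 1.52 in WT (SD, n = 3 for Lyz2cre and WT), while Gabarap took 62.5% ± 0.359, 65.3% and 66.1% ± 2.66 in the same order. The sum itself was 1439 TPM ± 43.1 in Lyz2cre, 1383 TPM in CD11ccre and 1490 TPM ± 70.3 in WT (SD, n = 3 for Lyz2cre and WT). The promoter window of Gabarapl1 in RefSeq, 250 bases before to 50 after the gene's start (GRCm38.p6, chr6:129532942-129533241, plus strand), is printed 5′ to 3′ to show the sequence next to a transcript that stood above the WT range in every Cre library.
Gabarapl1: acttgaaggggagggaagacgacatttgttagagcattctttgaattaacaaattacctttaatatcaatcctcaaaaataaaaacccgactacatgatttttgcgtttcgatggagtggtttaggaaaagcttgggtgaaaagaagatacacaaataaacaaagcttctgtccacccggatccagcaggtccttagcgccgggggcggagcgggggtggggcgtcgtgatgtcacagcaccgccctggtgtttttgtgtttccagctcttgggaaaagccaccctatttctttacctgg

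Map1lc3b, the LC3B gene, stood at 219.32, 230.34 and 236.20 TPM in the Lyz2cre libraries and 204.71 TPM in CD11ccre, against 278.34, 245.71 and 258.85 TPM in WT. The Cre libraries all lay below the WT range, and the log2 differences of -0.19 ± 0.10 (SE) in Lyz2cre and -0.35 ± 0.14 (SE) in CD11ccre did not pass (limma adjusted p = 0.283 and 0.198). Median-of-ratios scaling brought these log2 differences to -0.0076 in Lyz2cre and -0.0300 in CD11ccre, so their size depends on the scaling. The processed pseudogene Gm6055 matches Map1lc3b at 99.7% over 378 bases, so 75-base reads could be shared between them. Gm6055 was listed at 34.0, 43.0 and 7.72 TPM in the Lyz2cre libraries and 18.53 TPM in CD11ccre, against 21.71, 5.8 and 0 TPM in WT. With both rows added, Lyz2cre stood at 253.32, 273.34 and 243.92 TPM and CD11ccre at 223.24 TPM, against 300.05, 251.51 and 258.85 TPM in WT. The added values overlapped between Lyz2cre and WT (exact two-sided permutation p = 0.6), so Map1lc3b separated the groups alone and not with its pseudogene added. Gabarapl2 with its near-copy Gm3724 gave overlapping groups as well (exact two-sided permutation p = 1).

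**Figure D4:**
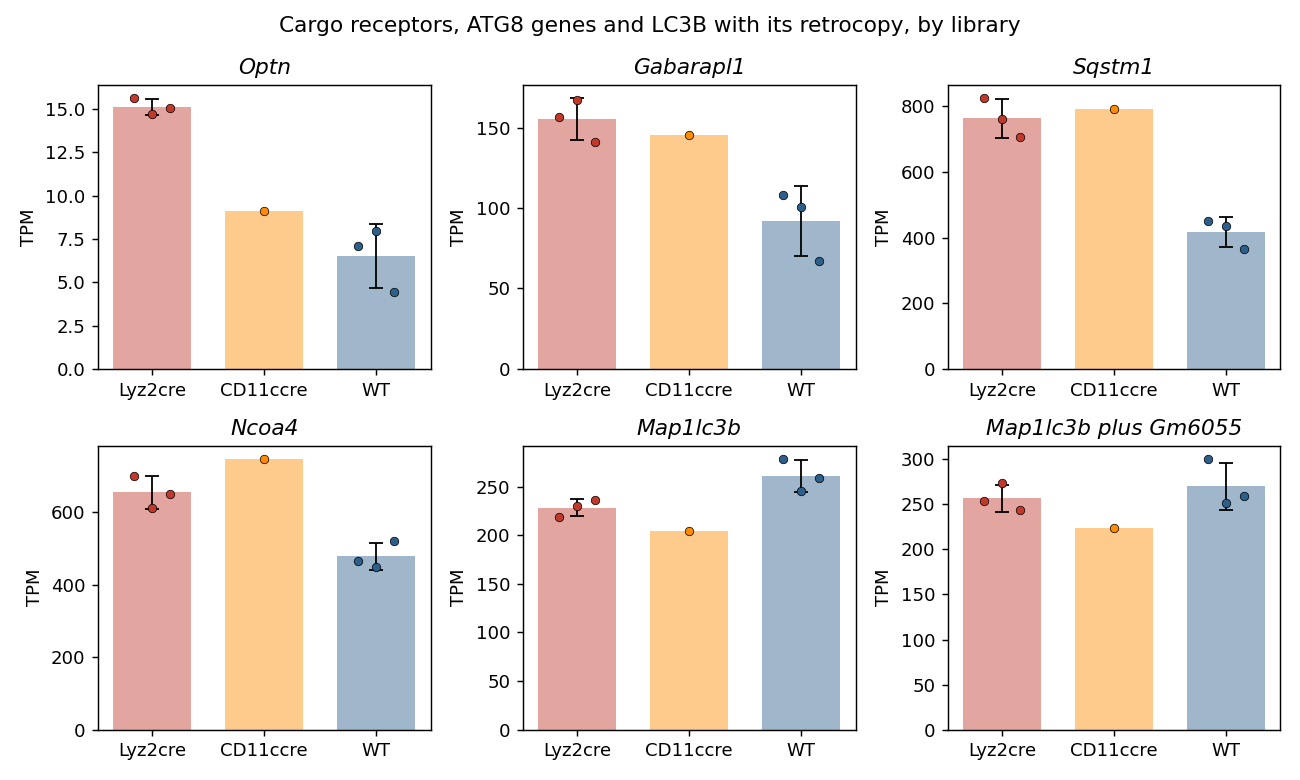
TPM by library (points) with group means (bars) and SD (error bars, n = 3, none for CD11ccre) for Optn, Gabarapl1, Sqstm1, Ncoa4, Map1lc3b and the sum of Map1lc3b and its pseudogene Gm6055. In the first 4 panels all Lyz2cre points lie above the WT points. In the last panel Lyz2cre overlaps WT, and the single CD11ccre point lies below both.

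The cargo receptors among the members were Optn, Tax1bp1, Nbr1 and Calcoco1, and 1 of 4 rose in Lyz2cre, where 2.17% of all genes were called higher. Optineurin links ubiquitin-marked cargo such as mitochondria and bacteria to ATG8 proteins. Optn (chromosome 2, 5020642 to 5064051, minus strand, mm10, ENSMUSG00000026672) stood at 15.60, 14.68 and 15.05 TPM in the Lyz2cre libraries and 9.08 TPM in CD11ccre, against 7.09, 7.97 and 4.46 TPM in WT. All Lyz2cre values lay above all WT values, with CD11ccre between the groups. The means were 15.1 TPM ± 0.463 in Lyz2cre and 6.51 TPM ± 1.83 in WT (SD, n = 3 each), and the log2 difference of 1.13 ± 0.22 (SE) passed (limma adjusted p = 0.0283, exact two-sided permutation p = 0.1). CD11ccre gave 0.46 ± 0.31 (SE, limma adjusted p = 0.420). The Lyz2cre call ended without Lyz2cre replicate 1, 2 or 3 (limma adjusted p = 0.104, 0.0927 and 0.106), without WT replicate 1 or 2 (0.0788 and 0.0588), with no filter on low values (0.0784) and with the replicate number as a block (0.0602), while the log2 difference stayed between 0.82 and 1.29 over all 15 alternatives. An overlapping gene on the other strand, 4930551O13Rik, averaged 0.163 TPM in Lyz2cre and was listed at 0 in the other groups. The window of the same size around the start of Optn (GRCm38.p6, chr2:5064068-5064367, minus strand) is printed 5′ to 3′ as that of the member that rose. The RefSeq start it is built on lies upstream of the mm10 start given for Optn from GENCODE, so the whole window lies upstream of the GENCODE gene.
Optn: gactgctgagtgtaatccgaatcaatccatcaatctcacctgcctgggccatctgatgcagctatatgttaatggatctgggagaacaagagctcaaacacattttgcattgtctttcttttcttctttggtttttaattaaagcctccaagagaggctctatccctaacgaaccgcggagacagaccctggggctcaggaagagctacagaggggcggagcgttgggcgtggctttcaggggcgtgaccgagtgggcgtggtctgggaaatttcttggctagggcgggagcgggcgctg

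The remaining receptors did not pass. Tax1bp1, a receptor for ubiquitin-marked protein aggregates, stood at 129.95, 99.45 and 106.41 TPM in the Lyz2cre libraries and 100.10 TPM in CD11ccre, against 110.56, 93.59 and 110.95 TPM in WT. Nbr1, a partner of p62 in binding ubiquitin-marked cargo, stood at 24.19, 27.08 and 27.59 TPM in the Lyz2cre libraries and 25.09 TPM in CD11ccre, against 22.66, 27.34 and 22.94 TPM in WT. Calcoco1, a receptor for endoplasmic reticulum and Golgi, stood at 18.97, 18.30 and 17.76 TPM in the Lyz2cre libraries and 19.21 TPM in CD11ccre, against 19.19, 17.67 and 15.42 TPM in WT. All of these overlapped between Lyz2cre and WT, with log2 differences of 0.07 to 0.11 and limma adjusted p of 0.676 or more. Optn took 8.83% ± 0.496 of the summed TPM of the 4 receptors in Lyz2cre, 5.92% in CD11ccre and 4.26% ± 1.28 in WT, and Tax1bp1 the most at 65.0% ± 3.42, 65.2% and 68.4% ± 4.22 in the same order (SD, n = 3 for Lyz2cre and WT). The fusion genes Stx17 and Epg5 stood at 6.01 TPM ± 1.14 and 1.86 TPM ± 0.533 in Lyz2cre and 5.01 TPM ± 0.967 and 2.06 TPM ± 0.406 in WT (SD, n = 3 each), with overlapping groups.

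Other genes of the pathway, outside the name rule, were read in the same fit: 65 were in the table and 63 were tested, of which 2 rose in Lyz2cre against WT and 0 fell. The share called was 3.17%, against 6.76% of all genes (2.17% higher). Both were cargo receptors, among 15 tested receptors. Before adjustment 18 of the 63 had p under 0.05, 7 higher and 11 lower, or 28.6%, against 24.6% of all genes. None of 14 further core and membrane factors, 15 fusion and tethering factors and 19 nutrient and kinase regulators was called. An unadjusted p under 0.05 was found for 7 core and membrane factors (2 higher, 5 lower), 1 fusion factor, 5 regulators and 5 receptors. All Lyz2cre values lay above all WT values for 12 of the 63 (19.0%, against 7.45% of all genes). They lay below all WT values for 15 (23.8%, against 23.3% of all genes). Among the 14 core and membrane factors, 3 lay wholly higher and 6 wholly lower. In CD11ccre against WT, 1 of the 63 rose and 0 fell (1.59%, against 2.89% of all genes, 0.895% higher), with 11 at an unadjusted p under 0.05 (17.5%, against 22.3% of all genes).

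Sqstm1, encoding p62, the receptor that binds ubiquitin chains and gathers cargo into condensates, stood at 823.44, 760.32 and 705.39 TPM in the Lyz2cre libraries and 790.08 TPM in CD11ccre, against 451.83, 433.67 and 365.91 TPM in WT. All 4 Cre libraries lay well above the WT range. It rose by 0.87 ± 0.12 (log2, SE) in Lyz2cre, a ratio of 1.83 (limma adjusted p = 0.00893), and the call held in all 15 alternatives with adjusted p from 0.000909 to 0.0454. It rose by 0.93 ± 0.17 (log2, SE) in CD11ccre (limma adjusted p = 0.0363), a call that ended on leaving out any of the 6 other libraries (adjusted p from 0.0607 to 0.0918), without a filter on low values (0.0563), without the trend (0.0974) and with the replicate block (0.105). Sqstm1 (chromosome 11, 50199366 to 50210827, minus strand, mm10) overlaps Mrnip on the other strand. Its promoter window (GRCm38.p6, chr11:50210771-50211070, minus strand, 5′ to 3′) is shown since it rose in both Cre lines.
Sqstm1: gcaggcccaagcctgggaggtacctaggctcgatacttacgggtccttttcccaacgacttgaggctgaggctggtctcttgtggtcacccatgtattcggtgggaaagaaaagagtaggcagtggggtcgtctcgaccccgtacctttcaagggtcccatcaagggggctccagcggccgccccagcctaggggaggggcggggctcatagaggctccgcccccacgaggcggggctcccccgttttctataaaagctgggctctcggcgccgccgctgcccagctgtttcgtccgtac

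Ncoa4, the receptor that takes ferritin to autophagosomes, stood at 700.34, 611.16 and 650.09 TPM in the Lyz2cre libraries and 745.27 TPM in CD11ccre, against 466.10, 448.56 and 519.84 TPM in WT. All 4 Cre libraries again lay above the WT range. It rose by 0.45 ± 0.10 (log2, SE) in Lyz2cre, a ratio of 1.37 (limma adjusted p = 0.0463), and the call ended on leaving out any of the 6 libraries (adjusted p from 0.0514 to 0.140), without a filter (0.0856), without the trend (0.124) and with the block (0.0811). In CD11ccre the difference of 0.64 ± 0.15 (log2, SE) did not pass (limma adjusted p = 0.0642), except with median-of-ratios scaling (0.0230) and with nuclear protein-coding genes rescaled (0.0261). Of its 3 promoter windows in RefSeq, built on different starts, the one shown 5′ to 3′ (GRCm38.p6, chr14:32165539-32165838, plus strand) holds a match to the antioxidant response element core, in capitals, 44 bases before the start.
Ncoa4: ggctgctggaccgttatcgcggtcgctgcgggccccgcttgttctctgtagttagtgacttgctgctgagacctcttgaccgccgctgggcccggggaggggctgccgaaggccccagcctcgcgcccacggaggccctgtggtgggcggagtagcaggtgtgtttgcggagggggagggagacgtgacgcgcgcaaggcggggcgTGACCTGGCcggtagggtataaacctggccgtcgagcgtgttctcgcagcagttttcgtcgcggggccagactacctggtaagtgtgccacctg

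Mtor and Arl8b, near the threshold and higher in Lyz2cre, are named after their values were seen. Of the 18 other pathway genes with an unadjusted limma p under 0.05 in Lyz2cre against WT, 11 were lower. Among those, also named afterwards, were Bnip3 (log2 difference -0.56, limma adjusted p = 0.0737), Nrbf2 (-0.50, 0.0753), Wdr45b (-0.43, 0.0765) and Mlst8 (-0.66, 0.0853). Mtor, the kinase that holds ULK in check, stood at 9.91, 8.35 and 5.53 TPM in the Lyz2cre libraries and 4.10 TPM in CD11ccre, against 1.91, 3.39 and 3.31 TPM in WT (log2 difference in Lyz2cre 1.20 ± 0.28 SE, limma adjusted p = 0.0510). Arl8b, a small GTPase that positions lysosomes, stood at 91.90, 118.39 and 95.40 TPM in the Lyz2cre libraries and 99.28 TPM in CD11ccre, against 72.06, 52.73 and 66.38 TPM in WT (log2 difference in Lyz2cre 0.67 ± 0.16 SE, limma adjusted p = 0.0526). Lyz2cre and WT did not overlap for Mtor, Arl8b or the lower genes named. Over 15 alternatives limma's adjusted p ran from 0.0273 to 0.151 for Mtor, which passed with median-of-ratios scaling and with nuclear protein-coding genes rescaled, and from 0.0194 to 0.142 for Arl8b, which passed under those and where genes under a mean of 5 TPM were left out. The transcription factor genes of the TFEB family, which drives many lysosomal and autophagy genes, were not called: Tfeb averaged 33.0 TPM ± 4.34 in Lyz2cre and 39.1 TPM ± 11.2 in WT, and Tfe3 averaged 23.5 TPM ± 3.73 in Lyz2cre and 29.3 TPM ± 6.35 in WT (SD, n = 3 each), with overlapping groups. Tfec, at 91.6 TPM ± 11.1 in Lyz2cre and 95.5 TPM ± 3.08 in WT (SD, n = 3 each), overlapped as well. Mitf stood at 10.23, 8.55 and 9.38 TPM in the Lyz2cre libraries and 10.45 TPM in CD11ccre, against 12.5, 10.58 and 12.7 TPM in WT, with no overlap (log2 difference in Lyz2cre -0.31, limma adjusted p = 0.278).

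Promoter windows were found in RefSeq for 33 of the 41 members. They were searched on both strands for CACGTG, the E-box that TFEB binds, TGACNNNGC, the core of the antioxidant response element, and TGANTCA, the AP-1 element, which can overlap the antioxidant core. A member gene counted if any of its windows held the motif, while the share for all genes is of single windows. These are unlike units, so neither is read against the other. CACGTG was present for 4 member genes (Atg14, Atg3, Atg5 and Atg7) and in 7.15% of 32851 windows of all genes. TGACNNNGC was present for 5 member genes (Atg13, Map1lc3b, Tax1bp1, Ulk2 and Vmp1) and in 12.4% of all windows. TGANTCA was present for 0 member genes and in 7.81% of all windows. In the windows printed for Optn, Gabarapl1 and Sqstm1 none of these motifs was found, and a match or its lack in such a window is a description of sequence only.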

How the data were processed

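Poly(A) RNA of sorted alveolar macrophages was made into directional libraries and sequenced from one end with 75-base reads, per the labels' protocols. The authors deposited 1 table of TPM for 47643 genes and 7 libraries; per the submitters' processing notes, tools included STAR 2.7.0d, RSEM 1.3.1 and cutadapt 2.3, with the build mm10. For the annotation and the strand setting the sources used here give nothing. TPM has the same sum in every library, so depth is unknown and a few abundant genes lower all others.

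Libraries were grouped by title as Lyz2cre (n = 3), CD11ccre (n = 1) and WT (n = 3). All 7 entered 1 fit of limma 3.58.1 (R 4.3.3) on log2(TPM + 1), kept to the 11397 genes averaging 1 TPM or more, with a trend of variance on mean level (residual degrees of freedom 4, prior 3.35). Tests were two-sided with Benjamini-Hochberg adjustment across those genes. The code was tested on simulated data. Exact two-sided permutation tests compared mean TPM. Coordinates came from GENCODE M21 (GRCm38), to which all 41 members matched by gene ID; 19 of the 39 tested members overlap another gene there, 8 of them on the same strand. Near-copies were transcripts matching at 95% or more over at least 300 bases.

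The members and gene lists were chosen with earlier results of these data known. Values by library are given for members that passed the threshold, members with an unadjusted p under 0.05 in Lyz2cre against WT, the ATG8 family and the cargo receptors, and for called genes of the other pathway lists with Sqstm1 and Ncoa4. Any further gene so described is an example of its role or was named after its values were seen. Ulk2, Atg3, Vmp1 and Mitf fall under none of these rules and are to be read as named after their values were seen. Alternatives were pseudocounts of 0.1 and 5, no filter, only genes averaging 5 TPM or more, median-of-ratios scaling, nuclear protein-coding genes without Ftl1, Fth1, Chil3 and Lyz2 rescaled to the full sum, no trend, leaving out the CD11ccre library, the replicate number as a block, and leaving out each Lyz2cre and WT library in turn. Retreg1, Rubcnl and Vamp7 of the pathway lists were not matched by name and are not analysed here.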

Additional observations from a re-analysis of the deposited data

How the results depend on the processing

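The 1 member called in Lyz2cre against WT became 2 with a mean TPM of at least 5, with median-of-ratios scaling and with nuclear protein-coding genes rescaled, 0 with no filter on low values and 0 with the replicate block, and 0 to 1 on leaving out a Lyz2cre or WT library. In CD11ccre against WT the count of 0 became 1 with a mean TPM of at least 5 (Atg16l1). Of the other pathway genes, the 2 called in Lyz2cre became 1 with no filter, 3 with a mean TPM of at least 5, 4 with median-of-ratios scaling, 4 with genes rescaled, 1 with no trend, 1 with the replicate block and 1 on leaving out any Lyz2cre or WT library, and stayed at 2 without the CD11ccre library. Leaving out a library or adding the block also leaves fewer residual degrees of freedom.

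Over 34 gene results and 493 values under an alternative, 439 kept their direction and side of the threshold, 25 lost and 11 gained a call, and 18 changed sign, none of them called. The log2 differences that changed sign with median-of-ratios scaling were Gabarap in Lyz2cre (0.0525) and in CD11ccre (0.195), Gabarapl2 in CD11ccre (0.212), Map1lc3a in CD11ccre (0.0188), Tax1bp1 in CD11ccre (0.251) and Atg16l1 in Lyz2cre (0.0739). With genes rescaled they were Gabarap (0.0361), Gabarapl2 (0.0559) and Tax1bp1 (0.0940), all in CD11ccre. On leaving out a library, the log2 difference in Lyz2cre of Gabarapl2 ran from -0.0864 to 0.12, of Map1lc3a from -0.15 to 0.28, of Calcoco1 from -0.0058 to 0.14, of Tax1bp1 from -0.0253 to 0.17 and of Atg16l1 from -0.24 to 0.0489, and that in CD11ccre of Gabarapl2 from -0.20 to 0.0111. The cause was not tested.

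The labels do not say whether same-numbered libraries were paired. The deviations of same-numbered Lyz2cre and WT libraries from their group means correlated across genes at -0.01, 0.04 and 0.07. Pairs with different numbers ran from -0.0975 to 0.0599. Deviations from a mean of 3 libraries are tied to each other, so these values cannot decide on pairing. The replicate block gave 171 higher and 219 lower genes over all, against 247 and 524. TPM keeps no depth, so how far low members such as Epg5 and Atg2b are limited by counting is unknown.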
